A study of Mus musculus with 2 samples.

Results

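The collagen genes encode the chains of the collagens, the proteins that form fibrils and sheets outside cells. They were taken as every protein-coding gene whose name is Col, a number, a and a number. This rule found 44 genes among the 21461 nuclear protein-coding genes in the deposited tables, which held 43346 Ensembl genes in all. Their RNA was measured by RNA-seq of total RNA from the forebrain of mouse embryos of strain B6NCrl at embryonic day 14.5. There was 1 group of 2 libraries, submitted as biological replicates 1 and 2, with no treatment, mutation or other group named in the labels. The labels describe each library as coming from 1 pup's forebrain, taken on a different day, yet both give the sex as pooled and carry the same donor identifier, so it is not settled that they are separate embryos of known sex. The spread between them may therefore be partly technical. Each library began from 10 ng of RNA longer than 200 nt.

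A collagen molecule is a rope of chains wound around each other. Each chain holds long stretches in which glycine recurs after every 2 other amino acids, since only glycine is small enough to sit on the axis of the rope. Chains are made in the endoplasmic reticulum, modified by hydroxylases, folded with dedicated chaperones, secreted, trimmed and cross-linked. In the embryonic brain, collagens are known mainly from the meninges, the sheets of fibroblasts that wrap the brain, from the basement membrane under the meninges and around vessels, and from vessel walls, while neurons and their progenitors lie in a matrix poor in fibrils.

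Depth was 35310017 expected counts in replicate 1 and 29250404 in replicate 2. Levels are given in TPM, a unit that divides the counts of a gene by its length and scales each library to a constant sum, so that genes can be compared. Markers of the labelled tissue were present, with all 9 radial glia markers and all 7 neuron markers at 1 TPM or more in both libraries. Values are followed by the SD over the 2 libraries (n = 2). With 1 group of 2 libraries no test between groups was possible, and an exact test could not go below p = 0.5. Counting intervals cover counting error only.

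The coding sequences show the repeat that defines the family. The start of the longest run of glycine triplets is printed for 3 members: Col3a1, the most abundant collagen here, Col4a1, the most abundant basement membrane chain, and Col26a1, whose runs are short. Capitals mark the glycine codons (GGN), and the runs begin at codon 164, codon 43 and codon 197.
Col3a1: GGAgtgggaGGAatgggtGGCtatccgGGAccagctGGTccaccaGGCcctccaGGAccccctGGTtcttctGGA
Col4a1: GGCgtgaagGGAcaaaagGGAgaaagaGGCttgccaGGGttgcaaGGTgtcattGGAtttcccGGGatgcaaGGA
Col26a1: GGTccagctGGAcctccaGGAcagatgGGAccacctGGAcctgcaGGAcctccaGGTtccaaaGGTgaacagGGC

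Unbroken runs in the 11 fibrillar chains, which make the banded fibrils, were 216 to 344 triplets long, with a median of 338. Col3a1 had the longest run, 344 triplets, and Col24a1 and Col27a1 had the shortest of that class, 216 and 217. In the 6 type IV chains, which make the net of basement membranes, the longest run was only 39 to 66 triplets, because the repeat is broken often: there were 23 to 27 runs of at least 3 triplets in each chain. These runs still covered 74.9% to 78.9% of the codons of a type IV chain. Many short runs were also found outside type IV. Col16a1 had 23 runs, Col17a1 had 22 and Col7a1 had 21, with longest runs of 52, 55 and 75 triplets. Col9a1, Col9a2 and Col9a3, chains of the fibril-associated type IX collagen, each had a longest run of 113 triplets. At the other end, the longest run of Col26a1 was 23 triplets, and its 2 runs covered 23.3% of its codons.

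**Figure D1:**
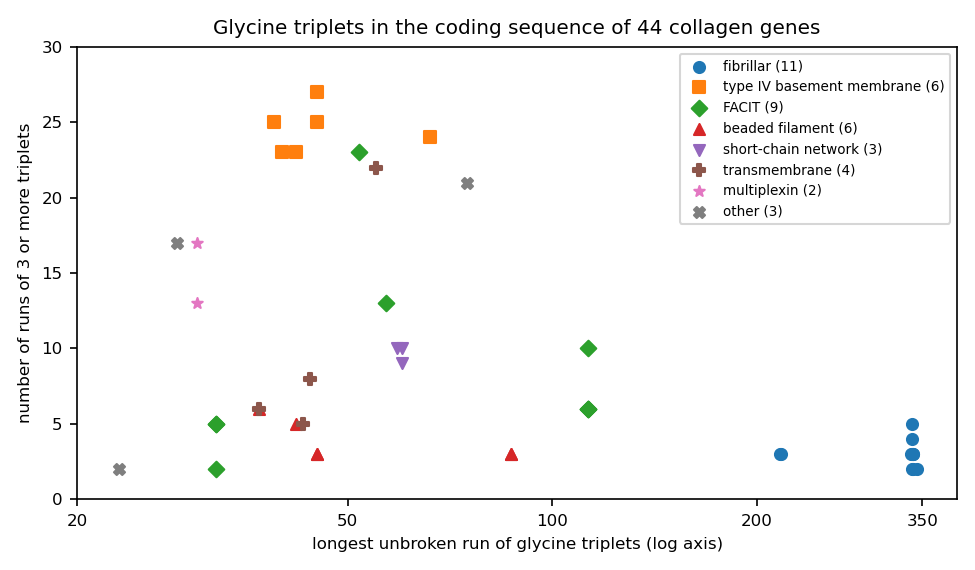
Length of the longest unbroken run of glycine triplets in each collagen gene (x axis, triplets, log scale) against its number of runs of at least 3 triplets (y axis), with colours and shapes for the 8 classes. The fibrillar chains stand apart at 216 to 344 triplets with 2 to 5 runs. The type IV chains sit at the top with 23 to 27 short runs, close to Col16a1 with 23, Col17a1 with 22 and Col7a1 with 21.

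Of the 44 collagen genes, 25 (56.8%) had at least 1 TPM in both libraries, beside 59.6% of all nuclear protein-coding genes. Another 17 were under 1 TPM in both libraries and 2 passed 1 TPM in replicate 2 only, namely Col13a1 and Col11a2. All 44 had at least 1 expected count in each library. The median of the mean TPM was 1.82 for collagen genes and 4.25 for all nuclear protein-coding genes, and 16 collagen genes lay above the latter. Only Col3a1 and Col4a1 had a mean of 50 TPM or more, a level reached by 15.4% of nuclear protein-coding genes.

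Summed over all 44 genes, the collagen level reached 328 TPM in replicate 1 and 469 TPM in replicate 2 (399 ± 99.8, SD, n = 2). Collagen reads were 0.0975% of the counts of replicate 1 (95% Wilson interval 0.0964% to 0.0985%) and 0.135% of those of replicate 2 (0.134% to 0.136%). The sum was carried by few genes: the 3 highest, Col3a1, Col4a1 and Col1a2, held 54.0% of it in replicate 1 and 53.6% in replicate 2. These 3 ranked highest, in that order, in both libraries. The next 5, Col1a1, Col9a3, Col4a2, Col18a1 and Col2a1, had means of 18.5 to 26.3 TPM and changed places between the libraries, so their order was not resolved.

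**Figure D2:**
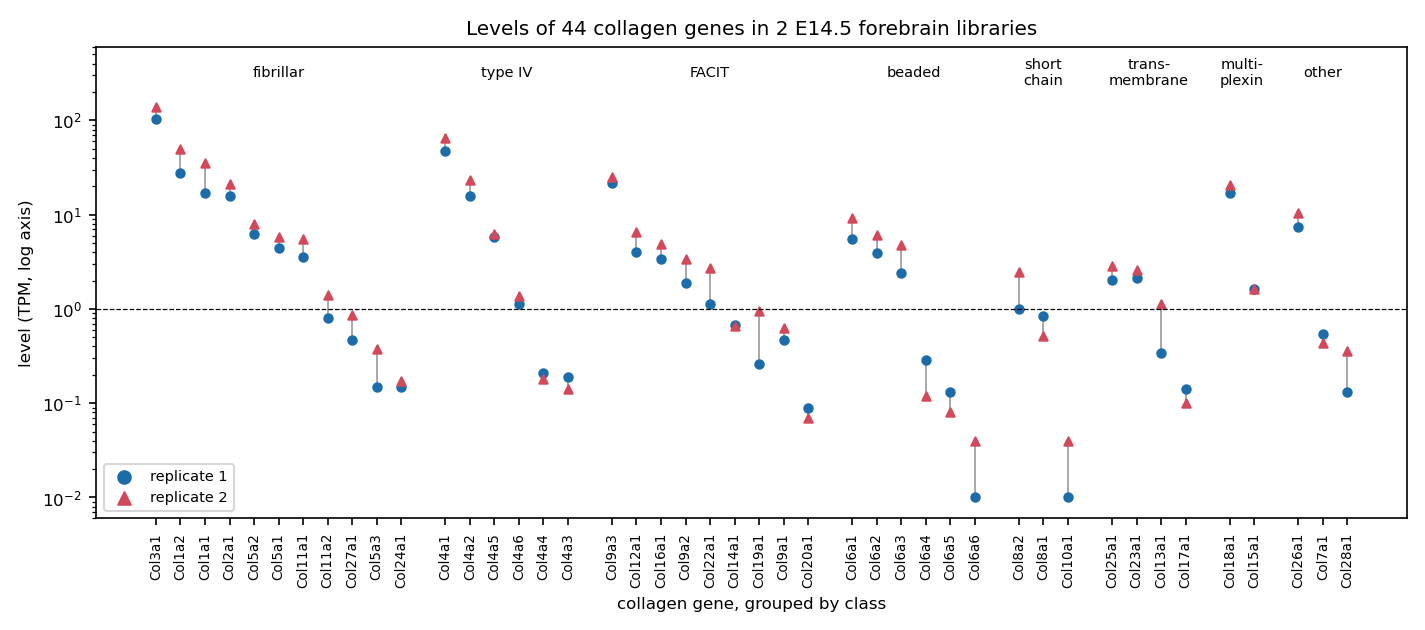
TPM of each of the 44 collagen genes (y axis, log scale), 1 circle for replicate 1 and 1 triangle for replicate 2, with genes grouped by class and ordered by level along the x axis; the dashed line is 1 TPM. Col3a1 lies at 102 and 137 TPM and Col4a1 at 47.4 and 65.0 TPM, while 17 genes stay under 1 TPM in both libraries.

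Fibrillar chains held 55.5% ± 1.45 of the summed collagen level (SD, n = 2), and 7 of the 11 genes were at 1 TPM or more in both libraries. Col3a1, the chain of type III collagen of soft tissue and vessel walls, had 102 TPM in replicate 1 and 137 TPM in replicate 2 (120 ± 24.8), which placed it at rank 1335 of 21461 genes. The gene lies at chr1:45311538-45349706 on the plus strand (mm10). Part of this level rested on an incomplete internal transcript model of 737 nt, to which the deposited tables gave 41.4 and 40.8 TPM. That model took 7.36% and 4.71% of the expected counts of the gene, and its share of the TPM is large because it is short. Counting only complete protein-coding transcripts, Col3a1 had 78.5 ± 25.2 TPM, which was still the highest collagen level. Most of the counts went to Col3a1-201, which encodes the whole chain.

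The promoter of Col3a1 is printed because it is 1 of the 5 collagen promoter windows with the letters of a TATA box, TATAAA. The match lies near the middle of the printed bases, and its distance from the start was not part of the search. The capitals mark that match, and the window (chr1:45311288-45311537, plus strand) ends at the base before the start of the gene.
Col3a1: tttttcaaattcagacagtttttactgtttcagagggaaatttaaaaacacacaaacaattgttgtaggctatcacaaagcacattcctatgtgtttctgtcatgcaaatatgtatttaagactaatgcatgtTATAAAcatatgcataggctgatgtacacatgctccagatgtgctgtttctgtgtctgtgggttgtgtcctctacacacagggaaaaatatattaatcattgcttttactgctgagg

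Type I collagen is the main fibril of skin, bone and the meninges, and its molecules join chains of Col1a1 and Col1a2. Col1a2 (chr6:4504814-4541544, plus strand) had 27.6 TPM in replicate 1 and 49.2 TPM in replicate 2. Col1a1 (chr11:94936224-94953042, plus strand) had 17.1 TPM in replicate 1 and 35.5 TPM in replicate 2. Col1a1 was thus the lower in both libraries, with a log2 ratio to Col1a2 of -0.58 ± 0.15. Col3a1 stood above Col1a1 by 2.26 ± 0.44 on the log2 scale, or by 1.63 when only complete transcripts were counted.

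Type V chains, which join type I fibrils and set their width, were lower. Col5a2 had 6.25 and 7.97 TPM and Col5a1 had 4.41 and 5.85 TPM in replicates 1 and 2. Their log2 ratio, Col5a1 over Col5a2, was -0.47 ± 0.04, while Col5a3 reached only 0.15 and 0.38 TPM. The genes Col3a1 and Col5a2 are neighbours, end to end and 24.6 kb apart on chromosome 1, and their mean levels differed 16.8-fold. Col24a1 and Col27a1, the fibrillar chains with short runs, were both under 1 TPM in the 2 libraries.

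The cartilage fibril chains were unevenly present. Col2a1 (chr15:97975602-98004695, minus strand), the main collagen of cartilage, had 15.9 TPM in replicate 1 and 21.0 TPM in replicate 2. Col11a1, which forms mixed fibrils with it, had 3.55 and 5.50 TPM and lay 2.05 ± 0.16 below Col2a1 on the log2 scale. With protein-coding transcripts only, the mean of Col2a1 was 14.3 TPM in place of 18.5 TPM. The log2 ratio of Col2a1 to Col11a1 was then 2.27, and 2.63 with complete transcripts only. Col11a2 was lower again at 0.81 and 1.40 TPM. Markers of cartilage and bone were nearly absent: 1 of 10, Cnmd, was at 1 TPM or more in both libraries, and the 10 summed to 3.28 TPM in replicate 1 and 3.36 TPM in replicate 2. Acan, the cartilage proteoglycan, had 0.02 and 0.07 TPM, and Bglap, made by bone-forming cells, had no count in either library.

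Col2a1 is spliced in forms with and without exon 2, which encodes a domain in the propeptide and is known from cells that are not mature cartilage. That exon, 204 bases long, is printed because the transcripts differ by it (chr15:98000403-98000606, minus strand).
Col2a1 exon 2: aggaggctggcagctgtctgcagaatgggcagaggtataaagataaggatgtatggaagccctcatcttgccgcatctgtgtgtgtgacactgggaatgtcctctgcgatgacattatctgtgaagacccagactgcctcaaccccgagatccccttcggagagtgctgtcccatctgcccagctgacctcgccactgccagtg

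Col2a1-201, which holds the exon, was estimated at 8.87 TPM in replicate 1 and 11.7 TPM in replicate 2. Col2a1-202, which lacks it, was estimated at 3.63 and 4.37 TPM. The form with the exon was thus 2.44 times the other in replicate 1 and 2.67 times in replicate 2. It made up 55.7% ± 0.255 of the TPM of the gene, and the form without it made up 21.8% ± 1.49.

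Type IV chains held 21.0% ± 0.723 of the summed collagen level, and 4 of the 6 were at 1 TPM or more in both libraries. Col4a1 (chr8:11198423-11312826, minus strand), with Col4a2 the chain of nearly all basement membranes, had 47.4 TPM in replicate 1 and 65.0 TPM in replicate 2. Col4a2 (chr8:11312805-11449287, plus strand) had 15.9 TPM in replicate 1 and 23.1 TPM in replicate 2. Col4a1 was 2.98 times Col4a2 in replicate 1 and 2.81 times in replicate 2, although the genes start head to head.

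The 6 type IV genes lie as 3 such head-to-head pairs, and the bases between or shared by the starts are printed to show how differently the pairs are spaced. The first exons of Col4a1 and Col4a2 share 22 bases (chr8:11312805-11312826, plus strand). The starts of Col4a3 and Col4a4 have 71 bases between them (chr1:82586850-82586920, plus strand). Between Col4a5 and Col4a6 lie 1308 bases, so the promoter of each is given by itself (chrX:141475169-141475384, plus strand, and chrX:141474077-141474326, minus strand). Capitals in these promoters mark the CCAAT box of Col4a5 and the GC box of Col4a6, the latter read on the opposite strand. The bases shared by Col4a1 and Col4a2 were not marked, though they hold the letters of a GC box, GGGCGG. Col4a5 also had a GC box in its searched window, which runs past the printed bases.
Col4a1 and Col4a2, shared: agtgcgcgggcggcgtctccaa
Col4a3 and Col4a4, between: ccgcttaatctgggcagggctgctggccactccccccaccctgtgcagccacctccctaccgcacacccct
Col4a5, promoter: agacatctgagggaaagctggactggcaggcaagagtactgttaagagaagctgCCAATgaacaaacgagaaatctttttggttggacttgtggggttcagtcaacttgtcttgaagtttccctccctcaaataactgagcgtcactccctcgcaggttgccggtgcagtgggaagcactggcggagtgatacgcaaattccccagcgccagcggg
Col4a6, promoter: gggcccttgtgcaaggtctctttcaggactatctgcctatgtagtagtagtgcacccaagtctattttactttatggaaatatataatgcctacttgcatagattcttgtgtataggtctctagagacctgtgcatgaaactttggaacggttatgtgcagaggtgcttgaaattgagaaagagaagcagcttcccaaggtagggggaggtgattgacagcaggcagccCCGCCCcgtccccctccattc

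Col4a5 (chrX:141475385-141689234), a chain of mature kidney and other membranes, had 5.75 TPM in replicate 1 and 6.23 TPM in replicate 2. Its partner Col4a6 had 1.12 and 1.38 TPM, lower by 2.27 ± 0.13 on the log2 scale. In Col4a5, an incomplete transcript model held 51.9% of the TPM, and with complete transcripts only the log2 ratio to Col4a6 was 1.20. The complete Col4a5-202 took 57.3% and 69.5% of the expected counts of Col4a5 in replicates 1 and 2. Col4a3 and Col4a4, best known from the kidney filter and the inner ear, had 0.19 and 0.14 TPM and 0.21 and 0.18 TPM, and their intervals overlapped. Each of the 3 pairs thus stood at a different level. The pair whose exons overlap was highest, the pair 1308 bases apart came next and the pair 71 bases apart was lowest. A link between spacing and level was not tested.

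**Figure D3:**
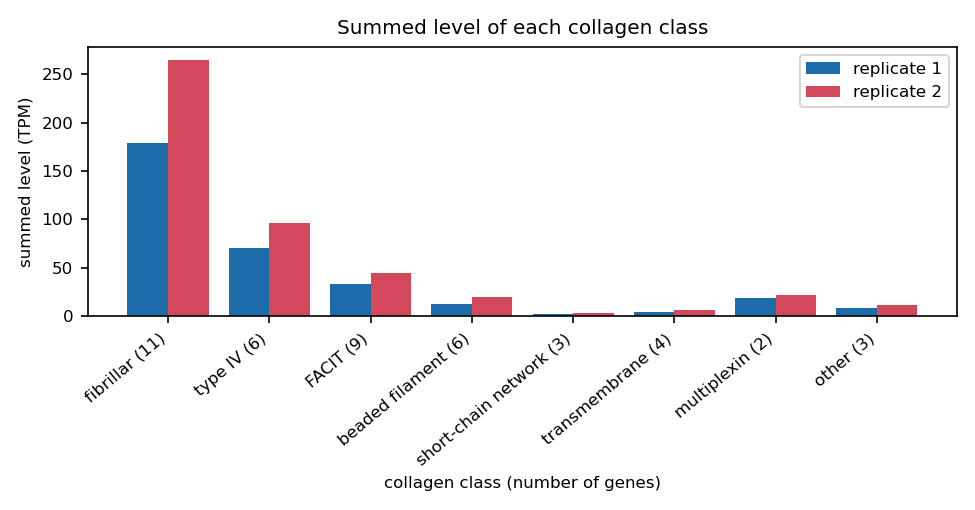
Summed TPM of each of the 8 collagen classes in replicate 1 and replicate 2 (y axis, TPM, starting at 0), with the number of genes beside each class name. Fibrillar chains sum to 179 and 265 TPM and type IV chains to 70.5 and 96.1 TPM, above every other class in both libraries.

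Fibril-associated collagens (FACIT), which coat fibrils without forming them, held 9.87% ± 0.461 of the collagen level, with 5 of 9 genes at 1 TPM or more in both libraries. Col9a3 (chr2:180597790-180622189, plus strand), a chain of type IX collagen, had 21.5 TPM in replicate 1 and 25.1 TPM in replicate 2. The other type IX chains were far lower, Col9a2 at 1.89 and 3.36 TPM and Col9a1 at 0.47 and 0.62 TPM. Col9a2 was under Col9a3 by 3.21 ± 0.43 on the log2 scale, and Col9a1 under Col9a2 by 2.22 ± 0.30, so the 3 chains that together make type IX collagen differed in both libraries. On the same chromosome, 364 kb from Col9a3, Col20a1 had 0.09 and 0.07 TPM.

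Col12a1, which links fibrils in tendon, muscle and fibrous sheets, had 4.06 TPM in replicate 1 and 6.49 TPM in replicate 2. Much of that level in TPM rested on an incomplete model and on retained introns: the mean of 5.28 TPM was 2.81 TPM with protein-coding transcripts only and 1.18 TPM with complete ones. In expected counts, however, the complete Col12a1-201 of 11511 nt took 60.2% and 59.3%. Shorter models weigh more in TPM, which divides by length. Col16a1 had 3.35 and 4.84 TPM, but a non-coding processed transcript held 45.7% of its TPM, the largest share. That model of 833 nt took only 27.0 and 27.2 of the 175 and 202 expected counts of Col16a1. Col22a1, known from the junctions of muscle and tendon, had 1.13 and 2.71 TPM, of which an incomplete model of 659 nt gave 0.95 TPM in replicate 2 on 9.35 expected counts. Col14a1 stayed under 1 TPM at 0.68 and 0.66. Col19a1 rested on 27 and 74 expected counts.

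Type VI collagen forms beaded microfibrils near cells, and its 6 genes held 4.02% ± 0.403 of the level. Col6a1 (chr10:76708792-76726168, minus strand) had 5.47 TPM in replicate 1 and 9.22 TPM in replicate 2. Col6a2 had 3.93 and 6.03 TPM, and Col6a3 2.43 and 4.72 TPM. These 3 chains, which assemble together, kept 1 order in both libraries, with Col6a1 above Col6a2 by 0.54 ± 0.10 and above Col6a3 by 1.07 ± 0.14 on the log2 scale. In Col6a3 a retained-intron model held 51.5% of the TPM, a large share because the model is only 646 nt long. It took 16.6 and 22.0 of the 237 and 390 expected counts of Col6a3 in replicates 1 and 2. The complete Col6a3-202 took 213 and 349. With protein-coding transcripts only, the log2 ratio of Col6a1 to Col6a3 was 2.11. Col6a4, Col6a5 and Col6a6, neighbours on chromosome 9, stood at 0.29 TPM or less in either library, and Col6a6 rested on 1 and 6 expected counts.

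Multiplexins are collagens of basement membranes that carry sugar chains, and both were at 1 TPM or more in both libraries. Col18a1, whose end part is known as endostatin, had 17.1 TPM in replicate 1 and 20.5 TPM in replicate 2. Col15a1 had 1.61 and 1.63 TPM, so Col18a1 was above it by 3.53 ± 0.17 on the log2 scale. The Col15a1 values lay below their own deposited intervals, 1.695 to 3.529 in replicate 1 and 1.854 to 4.206 in replicate 2. A model of 1755 nt held 52.45% of the Col15a1 TPM on 33.3 and 24.0 expected counts. Col18a1 has 3 complete forms with starts of their own. Col18a1-202, with the upstream start, held 98.7% ± 0.113 of the TPM of the gene. Col18a1-201, which starts 52.6 kb downstream, held 1.03%, and the other downstream form was at 0 TPM in both libraries. The promoter before that upstream start is printed, with capitals for its GC boxes and CCAAT box, each read on the opposite strand (chr10:77166549-77166780, minus strand).
Col18a1: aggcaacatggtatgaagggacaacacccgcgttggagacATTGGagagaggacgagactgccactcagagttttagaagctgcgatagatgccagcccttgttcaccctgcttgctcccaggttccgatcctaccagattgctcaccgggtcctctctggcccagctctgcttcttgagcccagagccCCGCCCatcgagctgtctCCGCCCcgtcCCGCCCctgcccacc

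Collagens that span the cell membrane, or that are small or hard to class, made up the rest. Col26a1 (chr5:136741759-136883209, minus strand), first described in testis and ovary, had 7.33 TPM in replicate 1 and 10.4 TPM in replicate 2. Its transcripts Col26a1-202 and Col26a1-201 held 67.5% and 28.8% of that. Among the transmembrane collagens, Col25a1, named for its link to amyloid plaques and found in neurons, had 2.04 and 2.85 TPM, and Col23a1 had 2.11 and 2.61 TPM. Col13a1 had 0.34 and 1.14 TPM, and Col17a1, a collagen of skin anchoring, had 0.14 and 0.10 TPM. Col8a2 and Col8a1, chains of a short network collagen in vessel walls and the cornea, had 1.01 and 2.44 TPM and 0.85 and 0.52 TPM. These 2 did not keep 1 ratio: the log2 ratio of Col8a1 to Col8a2 was -1.24 ± 1.40. Col7a1, the anchoring fibril of skin, stood at 0.54 and 0.44 TPM, and Col10a1, the marker of growing cartilage plates, rested on 1 and 2 expected counts.

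**Figure D4:**
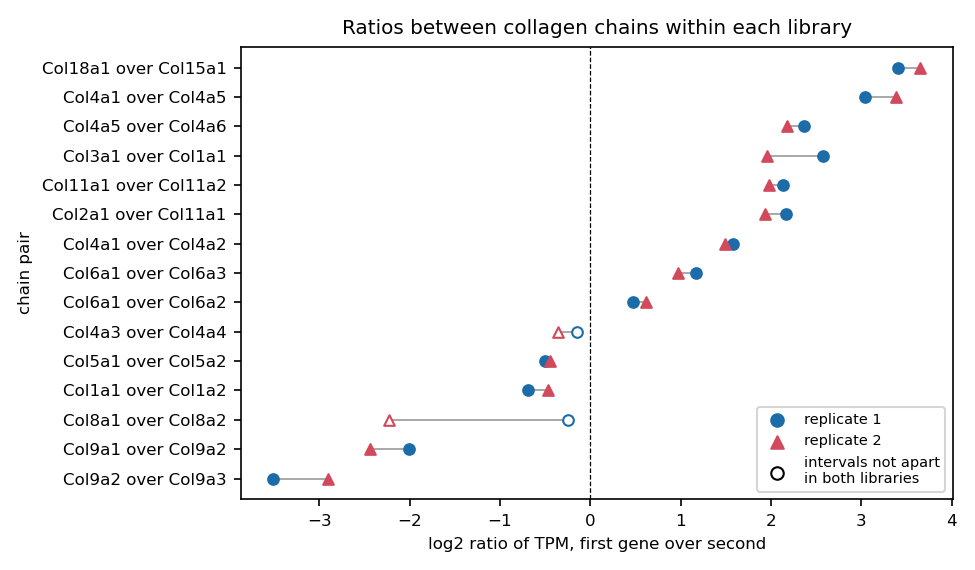
Log2 ratio of TPM, first gene over second (x axis), within 15 pairs of chains (y axis), with a circle for replicate 1 and a triangle for replicate 2. In 13 pairs (filled points) the deposited intervals of the 2 genes lay apart in the same direction in both libraries, which was not so for Col4a3 over Col4a4 and Col8a1 over Col8a2 (open points).

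Of 15 pairs of chains that join or resemble each other, 13 kept the same direction with intervals apart in both libraries, and 9 differed by at least 2-fold in the same direction in both. The intervals cover counting error only and pairs of other genes were not compared, so these counts describe the pairs alone.

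Across the 25 collagen genes at 1 TPM or more in both libraries, 23 were led by a protein-coding transcript and 17 had at least 90% of their TPM in such transcripts. The 2 exceptions were Col6a3 and Col16a1, whose leading models in TPM were short and took a minor part of the expected counts. Of all 44 genes, 36 were led by a protein-coding transcript. The same counts were not made over all genes, so they describe the collagen genes alone. Exons of 13 collagen genes overlapped another gene, 10 of them a gene on the opposite strand. Reads in those stretches may be shared, since the strand setting of the counting was not given in the sources used here.

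All 26 collagen genes with a mean of at least 1 TPM were higher in replicate 2 than in replicate 1, as were 74.0% of nuclear protein-coding genes at that level. The 26 genes had log2 ratios, replicate 2 over replicate 1 on TPM + 1, from 0.01 to 1.01, with a median of 0.44 and middle 50% from 0.32 to 0.59. Over all nuclear protein-coding genes the median was 0.15, so the collagen median was 0.29 above it. With counts scaled by edgeR's TMM, where the median of all genes was -0.00, the collagen median was 0.32 and all 26 were again higher in replicate 2, beside 49.3% of all genes. With FPKM 25 of the 26 were higher, beside 59.0% of all genes, and with TPM rescaled to the sum over nuclear protein-coding genes 25, beside 69.5%. The exception in both was Col15a1. With complete protein-coding transcripts only, 24 were higher, beside 72.2%, and Col11a1 and Col16a1 were not.

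In 18 of these 26 genes (69.2%) the deposited TPM intervals of the 2 libraries also lay apart, with replicate 2 higher, beside 35.0% of nuclear protein-coding genes. In 0 of 26 did they lie apart with replicate 1 higher, beside 6.68%. The level of these intervals is not stated, and for 2 genes in replicate 1 and 6 in replicate 2 the TPM itself lay outside its interval. Of the 14 collagen genes with a mean of at least 5 TPM, 1, Col1a1, differed by 2-fold or more with intervals apart and replicate 2 higher (0.231% of nuclear protein-coding genes at that level). The opposite direction held for 0 of 14 (0.0772% of all). Col1a1 had 2285 expected counts in replicate 1 and 3648 in replicate 2, a 2.07-fold difference in TPM. The difference was 1.93-fold in FPKM and 1.85-fold with TMM scaling, and with the latter 0 collagen genes passed, beside 0.0482% of all genes. With other thresholds and replicate 2 higher, 4 of the 14 passed at 1.5-fold (5.02% of all genes), 3 of the 26 with a minimum mean of 1 TPM (0.789%) and 6 of the 44 with no minimum (0.871%).

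The 9 genes that were higher in replicate 1 had means of 0.08 to 0.69 TPM: Col4a3, Col4a4, Col6a4, Col6a5, Col7a1, Col8a1, Col14a1, Col17a1 and Col20a1. Only in Col8a1, at 0.85 and 0.52 TPM, were the intervals apart. The genes that passed with a minimum of 1 TPM, beside Col1a1, were Col8a2 (2.42-fold) and Col22a1 (2.40-fold). In Col22a1 the fold rested on the incomplete model, since its complete transcript had 1.13 and 1.76 TPM, a 1.56-fold difference.

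**Figure D5:**
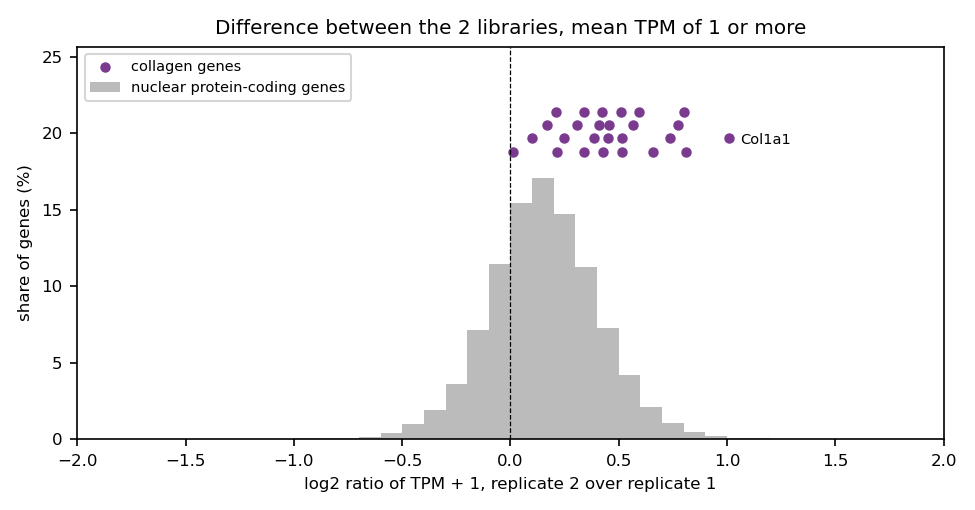
Log2 ratio of TPM + 1, replicate 2 over replicate 1 (x axis), as a histogram with the share of genes in percent (y axis) for nuclear protein-coding genes with a mean of at least 1 TPM, with the 26 collagen genes as points above it whose height has no meaning. The collagen genes lie from 0.01 to 1.01, to the right of 0, with a median of 0.44 against 0.15 for all; 6 genes beyond 2 in either direction are not drawn.

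Markers of cell types were also compared between the libraries, and no marker passed the 2-fold rule used for single genes. Of all nuclear protein-coding genes with a mean of at least 1 TPM, 74.0% were higher in replicate 2. The 12 markers of meninges and fibroblasts summed to 300 TPM in replicate 1 and 448 TPM in replicate 2, with 9 of 12 at 1 TPM or more in both libraries and 10 of 12 higher in replicate 2. The highest of them, Ptgds, had 143 and 258 TPM, and Dcn, a proteoglycan that binds collagen fibrils, had 57.0 and 73.1 TPM. Without Ptgds the other 11 summed to 157 and 190 TPM, 1.21-fold higher in replicate 2, and Lum, at 30.4 and 27.9 TPM, and Crabp2, at 29.89 and 27.97 TPM, were lower in replicate 2. The 8 pericyte markers summed to 124 and 171 TPM, 1.38-fold higher, and the 10 endothelial markers to 181 and 210 TPM, 1.16-fold higher. By comparison, the collagen sum was 1.43-fold higher. Neuron markers summed to 1.24-fold more in replicate 2, Cajal-Retzius markers to 1.22-fold more, and radial glia and choroid plexus markers to 1.01-fold. The radial glia sum was led by Fabp7, at 1264 and 1336 TPM, and the choroid plexus sum by Ttr, at 764 and 778 TPM. Single markers in these 2 lists moved both ways, with 5 of 9 and 4 of 8 higher in replicate 2. Those higher were 8 of 8 for pericytes, 8 of 10 for endothelium, 7 of 7 for neurons and 4 of 5 for Cajal-Retzius cells. For surface epithelium 3 of 6 were higher, and for cartilage and bone 5 of 10. Surface epithelium markers summed to 9.67 and 7.92 TPM, with 2 of 6, Krt8 and Krt18, at 1 TPM or more in both libraries. The part of each cell type, and of the lower depth of replicate 2, in the collagen difference was not tested. In a bulk sample, fewer cells of a type and less RNA per cell cannot be told apart.

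Of 51 genes in 4 lists that make and handle collagen, 41 were at 1 TPM or more in both libraries. This stood beside 25 of the 44 collagen genes and 59.6% of all nuclear protein-coding genes. The lists differed, from 8 of 13 propeptide and cross-linking enzymes, near the share over all genes, to 19 of 20 synthesis genes. Enzymes and chaperones of collagen synthesis were at that level in 19 of 20 cases, P3h2 being the exception. Ppib, a folding isomerase, had 351 and 318 TPM, and P4hb, a subunit of prolyl hydroxylase, had 285 and 284 TPM. Both also serve other secreted proteins. Serpinh1, the collagen chaperone, had 78.8 TPM in replicate 1 and 89.99 TPM in replicate 2, and Mia3 and Sec23a, which load large cargo for export, had 52.5 and 76.6 TPM and 91.1 and 110 TPM.

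Propeptide and cross-linking enzymes were at 1 TPM or more in both libraries in 8 of 13 cases. Bmp1, which cuts the end propeptide of fibrillar chains, had 12.3 and 14.8 TPM, and Pcolce, its enhancer, had 8.60 and 10.5 TPM. Adamts3, which cuts the other end, had 10.9 and 13.8 TPM. Lox, which starts cross-links, had 4.46 and 7.43 TPM and Loxl1 had 7.57 and 9.39 TPM. Tll2, Adamts14 and Loxl4 were under 1 TPM in both libraries.

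Collagen receptors were at 1 TPM or more in both libraries in 8 of 10 cases, with Itga10 under 1 TPM in both. Adgrg1, which binds type III collagen at the brain surface, had 87.1 and 97.3 TPM, Itgb1 had 79.2 and 89.8 TPM and Ddr1 had 49.5 and 61.9 TPM. Ddr2, a receptor for fibrillar collagen, had 3.75 TPM in replicate 1 and 8.28 TPM in replicate 2, and the integrin chain Itga1 had 4.16 and 5.00 TPM. Of 8 degrading enzymes, 6 were at 1 TPM or more in both libraries, led by Mmp14 at 38.1 and 41.5 TPM. Mmp16 had 14.5 TPM in replicate 1 and 29.7 TPM in replicate 2. Mmp9 and Mmp2, the gelatinases, had 10.8 and 13.4 TPM and 10.7 and 11.8 TPM, and Mmp15 had 9.46 and 11.8 TPM. In TPM, Ddr2 and Mmp16 passed the same 2-fold rule as Col1a1, with replicate 2 higher. With TMM scaling of the counts, Ddr2 differed 1.47-fold and Mmp16 1.58-fold, and neither passed. Ddr2 had 372 and 474 expected counts and Mmp16 had 1269 and 1731. Unlike TPM, the scaled counts were not divided by length, and the parts of length and of scaling in the change were not tested. Mmp8 and Mmp13, the classic interstitial collagenases, were under 1 TPM in both libraries, and Mmp13 had no count in either.

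Promoter windows of 300 bases, from 250 before to 50 after the start, were found for 35 of the 44 genes, 38 windows in all. The GC box, GGGCGG on either strand, was in 23 of the 38 windows (60.5%) and in 35.7% of the 32851 windows of all genes. This difference was not tested. Windows of 1 gene, or of genes with close starts such as Col4a1 and Col4a2, can share bases, so windows are not separate observations. The CCAAT box was in 13 (34.2%, against 37.4%) and the TATA box, TATAAA, in 5 (13.2%, against 13.6%). The TATA windows belong to Col3a1, Col10a1, Col11a2, Col13a1 and Col17a1, which range from the highest collagen level to 1 of the lowest. A match only describes the letters in the window.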

How the data were processed

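Total RNA of 2 mouse forebrain libraries was quantified by the authors on mm10 (GRCm38) using the GENCODE M4 annotation, as the files' notes state; which aligner and quantifier were used, and whether strand was, is not given in the sources used here. The deposited columns hold expected counts (estimated read numbers), TPM, FPKM, posterior mean TPM with interval bounds (signal values, level not stated) and, for each transcript, its percent of the gene's TPM, per the file headers. Names, types and coordinates came from GENCODE M21 on the same assembly, and promoters from RefSeq on GRCm38.p6. Col1a1, Col2a1, Col4a3, Col5a2, Col9a3, Col12a1, Col14a1, Col22a1 and Col26a1 had no entry in the promoter table. The bases between starts, exon 2 and the coding runs were read from the reference transcripts or these windows.

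A gene was detected at 1 TPM or more in both libraries. Libraries were compared with a pseudocount of 1 and a minimum mean of 1 TPM, and single genes with 2-fold or more, a mean of at least 5 TPM and intervals apart. Pairs counted as separated when their intervals lay apart in the same direction in both libraries. Expected counts were rounded to whole numbers for TMM scaling in edgeR 4.0.16 (R 4.3.3); the rest used Python 3.11.15, pandas 2.3.3, numpy 2.4.6 and scipy 1.17.1. Runs of at least 3 glycine triplets were counted in the longest complete coding transcript. The rule for differing genes was tried on simulated counts that held counting error only, so its behaviour between 2 real libraries was not tested. The searches for glycine runs and motifs were tried on short made-up sequences. Values were printed for members with a mean of 5 TPM or more, for those in chain pairs or differing between libraries, and for single others; partner genes were named by the 5 highest means and those under 1 TPM, markers by sums and highest members. The members and lists were chosen with earlier results of these data known. Alternatives varied the minimum, the fold, the pseudocount, the unit, the scaling, the transcripts and the replicate. No samples were left out.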

Additional observations from a re-analysis of the deposited data

How the results depend on the processing

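No paired analysis was possible because the design has 1 group. The fibrillar share was 52.9% in counts not divided by length, 51.9% with complete protein-coding transcripts summed and 60.6% with only the longest of them. The type IV share was 28.5%, 24.6% and 29.5% under the same settings and 22.1% with protein-coding transcripts. The longest-transcript setting also lowered the summed level to 275 TPM and turned the log2 ratio of Col18a1 to Col15a1 to -1.80, because the longest Col18a1 model is not the one with most reads. Both settings on complete transcripts were chosen after seeing the data. Genes differing between the libraries numbered 4 at 1.5-fold (Col12a1, Col1a1, Col1a2, Col6a1; 5.02% of all genes), 6 with no minimum (0.871% of all genes), 3 with a minimum mean of 1 TPM (0.789%) and 0 with TMM scaling (0.0482%). The median log2 ratio was 0.51 with a pseudocount of 0.1, 0.32 with no minimum, 0.33 in FPKM, 0.43 with posterior means, 0.42 after rescaling, 0.32 with TMM, and 0.34 with complete and with longest transcripts, positive throughout. Over all members, 36 were led by a protein-coding transcript. Leaving out each replicate gave 25 to 27 detected genes, sums of 328 to 469 TPM, fibrillar shares of 54.5% to 56.5%, type IV shares of 20.5% to 21.5%, 13 to 14 separated pairs and 41 to 44 partner genes, and no difference between the libraries could then be computed. Apart from leaving out a replicate, which with 2 libraries always moves a mean by less than the SD, levels of single genes moved by less than the SD in 48 cases and by more in 22. Pair ratios moved by less in 30 cases and by more in 26, and 1 turned. The cause of these shifts was not tested. With 2 libraries the SD itself is poorly known.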
